A study of Homo sapiens with 6 samples.

Results

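PC9 is a human lung adenocarcinoma cell line that the labels describe as epithelial and with the genotype EGFR-del, and its untreated culture is described here as split by the authors' own cell list. The 1146 untreated cells that stand in the deposited count table but not in the accompanying table of cells named for G1 are called outside cells here. They made up 87.1% of the 1315 untreated cells, with a 95% exact binomial interval of 85.2 to 88.9% that covers counting error only. The other 169 untreated cells, called inside cells, are listed in that table. The whole PC9 count table holds 11258 cells and 77210300 unique molecular identifiers (UMIs, the molecules counted).

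The study grew PC9 cells in RPMI-1640 with fetal bovine serum and raised the dose of osimertinib, an inhibitor of mutant EGFR, stepwise from 8 nM to 1.2 µM to obtain adapted populations. Persister cells were made by 9 days at 1.2 µM, and the untreated control culture received no drug. All 10 populations share the EGFR-del genotype, were labelled with CellPlex oligonucleotide tags, pooled in equal amounts and sequenced with droplet 3′ chemistry. Outside and inside cells thus come from 1 culture, 1 pool and 1 library preparation, and differ only in whether the authors listed them. The sources used here do not state by what rule a cell was listed, beyond G1 in the table's name. With 1 culture there is no replicate check: folds are given with 95% exact binomial counting intervals, and no p-value is given.

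A dividing cell copies its DNA in S phase, prepares for division in G2 and separates its chromosomes in mitosis (M), and G1 is the gap between a division and the next S phase. Many genes of replication are switched on by E2F factors once CDK4, CDK6 and CDK2 have inactivated the retinoblastoma protein. Many genes of G2 and mitosis are switched on later through MYB and FOXM1 complexes, and their promoters often hold CHR elements and CCAAT boxes. In cells with mutant EGFR, growth factor signalling through this receptor feeds into the cyclin D and CDK4/6 step.

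The markers given for the split are TYMS, the thymidylate synthase used in DNA synthesis, and UBE2C, the ubiquitin-conjugating enzyme of the anaphase-promoting complex. Both are score genes, so their values describe the split and do not check it. Promoters of 3 genes of replication and S-phase entry are shown, because the replication results turn on genes of this type. Sequences are from RefSeq on GRCh38.p14, read 5′ to 3′ on the gene's strand from 250 bases before to 50 bases after the annotated start, and capitals mark CCAAT boxes (CCAAT), CHR words (TTTGAA or TTCGAA) and E2F words (TTTCCCGC, TTTCGCGC, TTTGCCGC or TTTGGCGC) on either strand. TYMS lies on the plus strand at chr18:657403-657702, CDC6, which loads the replicative helicase, on the plus strand at chr17:40287629-40287928, and E2F1, a transcription factor of S-phase entry, on the minus strand at chr20:33686336-33686635.
TYMS: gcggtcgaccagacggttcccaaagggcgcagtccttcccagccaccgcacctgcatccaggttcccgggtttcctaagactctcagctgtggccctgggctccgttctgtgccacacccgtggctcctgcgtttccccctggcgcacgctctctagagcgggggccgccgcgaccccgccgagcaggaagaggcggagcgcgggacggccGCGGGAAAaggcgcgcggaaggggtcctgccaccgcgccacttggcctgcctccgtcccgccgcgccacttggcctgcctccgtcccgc
CDC6: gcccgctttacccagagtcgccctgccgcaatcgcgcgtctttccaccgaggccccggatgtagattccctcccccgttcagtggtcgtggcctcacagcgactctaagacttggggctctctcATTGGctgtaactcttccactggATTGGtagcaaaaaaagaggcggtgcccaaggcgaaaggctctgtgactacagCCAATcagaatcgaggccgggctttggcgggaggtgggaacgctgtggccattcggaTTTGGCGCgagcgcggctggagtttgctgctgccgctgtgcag
E2F1: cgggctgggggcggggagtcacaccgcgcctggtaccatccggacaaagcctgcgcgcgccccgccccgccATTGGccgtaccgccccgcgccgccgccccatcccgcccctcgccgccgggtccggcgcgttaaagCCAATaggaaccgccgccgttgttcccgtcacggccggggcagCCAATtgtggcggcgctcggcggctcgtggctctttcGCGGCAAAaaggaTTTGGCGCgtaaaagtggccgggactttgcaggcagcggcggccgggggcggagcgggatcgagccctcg

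Promoters of 3 genes of G2 and mitosis are shown beside them. CDK1, the kinase that drives mitotic entry, lies on the plus strand at chr10:60778081-60778380. PLK1, a kinase of mitotic entry and spindle assembly, lies on the plus strand at chr16:23678639-23678938. CDC20, the activator of the anaphase-promoting complex, lies on the plus strand at chr1:43358731-43359030.
CDK1: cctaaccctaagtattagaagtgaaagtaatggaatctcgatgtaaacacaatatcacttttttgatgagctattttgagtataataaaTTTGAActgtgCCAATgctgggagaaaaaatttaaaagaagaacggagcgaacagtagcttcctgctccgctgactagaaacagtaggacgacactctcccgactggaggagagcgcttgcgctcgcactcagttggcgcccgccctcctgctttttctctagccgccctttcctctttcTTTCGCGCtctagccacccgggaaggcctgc
PLK1: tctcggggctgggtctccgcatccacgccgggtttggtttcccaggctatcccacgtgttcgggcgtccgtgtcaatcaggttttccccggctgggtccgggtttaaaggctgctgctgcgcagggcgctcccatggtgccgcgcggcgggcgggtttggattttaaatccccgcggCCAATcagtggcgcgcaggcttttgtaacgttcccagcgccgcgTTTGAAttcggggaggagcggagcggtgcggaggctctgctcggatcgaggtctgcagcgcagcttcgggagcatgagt
CDC20: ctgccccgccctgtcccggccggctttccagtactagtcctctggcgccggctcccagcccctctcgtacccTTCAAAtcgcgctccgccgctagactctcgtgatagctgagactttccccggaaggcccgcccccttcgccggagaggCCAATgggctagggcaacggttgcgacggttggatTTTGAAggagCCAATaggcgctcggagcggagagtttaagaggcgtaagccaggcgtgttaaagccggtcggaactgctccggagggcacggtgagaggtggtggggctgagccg

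The 6 promoters were chosen with their words seen. The capitals fall on E2F words in the TYMS, CDC6 and E2F1 windows and on CHR words in the CDK1, PLK1 and CDC20 windows, and CDK1 holds both kinds. The windows of MCM10 and RRM2 held no E2F word, and those of CCNB1, CCNA2 and KIF20A no CHR word. An E2F word was found in 16 of the 32 S-phase score genes with a promoter sequence and in 14 of the 33 genes of the separate replication list (42.4%). It was found in 3 of 44 G2 and M-phase score genes (6.82%) and in 2 of 46 genes of the separate mitosis list (4.35%). The share was 6.11% over the 7067 measured genes with a sequence and 3.33% over all 27305 promoters searched. A CHR word was found in 32 of the 44 G2 and M-phase score genes (72.7%) and in 30 of the 46 other mitosis genes (65.2%), against 11.5% of measured genes and 16.6% of all promoters. CCAAT boxes did not separate the kinds: 71.9% of S-phase score genes and 57.6% of other replication genes held 1 or more. The shares were 68.2% of G2 and M-phase score genes and 65.2% of other mitosis genes, against 36.9% of measured genes. The short CHR words occur often by their length, and a match is not a binding site. Among the 53 genes that were 2-fold or more lower in outside cells and have a sequence, 1 held an E2F word (1.89%) and 7 a CHR word (13.2%).

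Outside cells held 9421311 UMIs in all and inside cells 1130926. The median cell had 8178 UMIs outside and 6620 inside, and 3278 genes with a UMI outside against 2839 inside. The mean cell held 1.23 times as many UMIs outside as inside, which is 0.30 on the log2 scale. The median share of mitochondrially encoded UMIs was 7.39% outside and 7.97% inside. No untreated cell exceeded 2 times the median of all untreated cells (7968 UMIs), and no cell barcode was shared between populations. By the authors' cluster numbers, 145 of the 169 inside cells (85.8%) lay in cluster 0, whose 152 listed cells are 95.4% untreated, and 5, 10 and 9 lay in clusters 1, 2 and 3.

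Both groups carried general epithelial markers, and lung identity was not shown, since only SLPI of the lung epithelial list was measured. EPCAM, an epithelial adhesion molecule, had 446 CPM (UMIs of the gene per 1000000 UMIs) outside and 399 CPM inside. The keratin KRT18 had 2988 CPM outside and 2709 CPM inside, and EGFR itself had 964 CPM outside and 1124 CPM inside. Of 21 markers of immune, endothelial, fibroblast, erythroid and melanocyte cells, 9 were in the count table, and their summed level was 43.7 CPM outside and 40.7 CPM inside. CD68 made up most of that sum, with 30.6 CPM outside and 27.4 CPM inside. PTPRC, the pan-leukocyte gene, had 0 UMIs in both groups. Longer lists of the same cell types held 35 genes, 16 of them in the table, which summed to 86.7 CPM outside and 93.7 CPM inside. The highest was MITF, a melanocyte transcription factor, with 32.2 CPM outside and 45.1 CPM inside, and the part of other cells in the results was not tested.

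The split was set beside cell cycle scores, computed over all PC9 cells from 43 S-phase genes and 54 genes of G2 and M phase. The same genes may have chosen the listed cells, so the calls describe the split and do not check its name. Of the 1146 outside cells, 542 were called S (47.3%), 577 G2M (50.3%) and 27 G1 (2.36%). Of the 169 inside cells, none was called S, 38 were called G2M (22.5%) and 131 G1 (77.5%). The 2 groups thus carry different calls for nearly all outside cells and for most, but not all, inside cells. A call is a range of a score: the larger score of 25 of the 27 G1-called outside cells lay within 0.05 of the boundary at 0, as did that of 23 of the 38 G2M-called inside cells. Over all 10 populations, 94.3% of the 4208 listed cells were called G1 and 97.3% of the 7050 cells not listed were called S or G2M.

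Per 10000 UMIs of a cell, S-phase score genes had a median of 36.2 UMIs in outside cells and 14.4 UMIs in inside cells. For the G2 and M-phase score genes the medians were 62.1 UMIs outside and 32.3 UMIs inside. No inside cell exceeded 30.4 UMIs per 10000 for the S-phase list or 73.0 for the G2 and M-phase list. Above the first of these values lay 721 outside cells, above the second lay 426, and 105 lay above both. The groups overlapped in 104 outside cells (9.08%) that lay at or under both values.

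**Figure D1:**
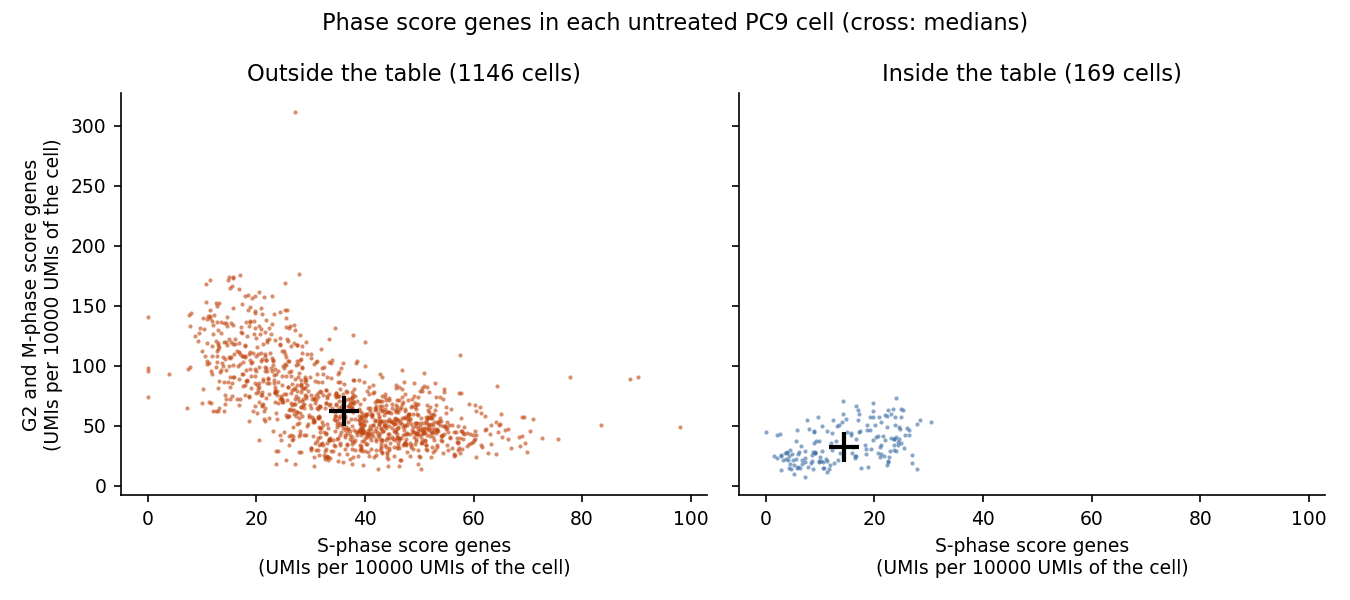
Each point is 1 untreated PC9 cell, with the UMIs of S-phase score genes (x axis) and of G2 and M-phase score genes (y axis) per 10000 UMIs of the cell; outside cells are on the left, inside cells on the right, and crosses mark the medians. The median outside cell lies at 36.2 and 62.1, the median inside cell at 14.4 and 32.3, and no inside cell passes 30.4 on the x axis or 73.0 on the y axis.

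Both markers were higher in outside cells. TYMS had 152 CPM in outside cells and 38.0 CPM in inside cells, a ratio of 4.00 (2.95 to 5.55). UBE2C had 181 CPM outside and 21.2 CPM inside, a ratio of 8.52 (5.71 to 13.3). After each cell was thinned to 3200 UMIs, which left out 51 outside and 12 inside cells, a TYMS UMI was seen in 38.0% of outside cells (35.1 to 40.9) and in 7.01% of inside cells (3.55 to 12.2). A UBE2C UMI was seen in 31.6% of thinned outside cells (28.9 to 34.4) and in 8.28% of thinned inside cells (4.48 to 13.7). Without thinning the shares were 64.3% outside and 20.1% inside for TYMS, and 52.1% outside and 13.0% inside for UBE2C. No cell type of the pool should lack these genes, so the background from free RNA could not be measured.

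A gene was taken as measured at 10 CPM or more and 20 UMIs or more in the group where it was higher, which held for 8483 of the 15429 genes in the table. On the log2(CPM + 1) scale, 285 of them were 2-fold or more higher in outside cells (3.36%) and 71 were 2-fold or more lower (0.837%), with a median difference of 0.03 over all measured genes. The counting interval lay beyond 2-fold for 92 of the higher and 8 of the lower genes. In UMIs per cell, with no scaling for depth and a pseudocount equal to 1 CPM of the mean inside cell, 563 genes were 2-fold higher and 25 were 2-fold lower. Of the 95 measured score genes, 65 were higher and 0 lower. These genes may be what chose the listed cells, so their direction is a description and supports nothing. Outside the score lists, 220 genes were higher and 71 lower of 8388.

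Genes of DNA replication stood above the background in outside cells, for part of their members at 2-fold. In a list of 38 measured replication genes that are not score genes, 11 were 2-fold higher and 0 lower, with a median log2 difference of 0.74 beside 0.03 for all measured genes. TICRR, which recruits the helicase activators, had 23.6 CPM outside and 3.54 CPM inside, from only 4 inside UMIs, a ratio of 6.66 (2.57 to 24.7). DONSON, which protects replication forks, had 16.5 CPM outside and 3.54 CPM inside, a ratio of 4.65 (1.78 to 17.3). MCM10, needed to activate the replicative helicase, had 59.9 CPM outside and 16.8 CPM inside, a ratio of 3.56 (2.26 to 5.96). POLD1, the catalytic subunit of DNA polymerase delta, had 14.2 CPM outside and 3.54 CPM inside, a ratio of 4.02 (1.53 to 15.0). All 4 intervals exclude 1, but the 4 genes were named for the largest differences of the list, so this supports nothing. The intervals of TICRR, DONSON and POLD1 are wide. Origin recognition was mixed: ORC1 and ORC6 differed by 0.94 and 0.93 on the log2 scale, while ORC2 and ORC3 differed by -0.21 and -0.06.

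Among the S-phase score genes, 27 of 42 were 2-fold higher, with a median of 1.40. CCNE2, the cyclin E2 partner of CDK2, had 21.5 CPM outside and 1.77 CPM inside from 2 UMIs, a ratio of 12.2 (3.33 to 101). E2F8, a repressor that shuts off E2F targets, had 34.3 CPM outside and 3.54 CPM inside, a ratio of 9.69 (3.75 to 35.8). EXO1, a repair exonuclease, had 28.4 CPM outside and 4.42 CPM inside, a ratio of 6.43 whose interval starts at 2.72. CDC6, whose promoter is shown above, had 45.3 CPM outside and 15.9 CPM inside, a ratio of 2.85 (1.78 to 4.85). All 4 are score genes, so that their intervals lie above 1 supports nothing. CCNE2 and E2F8 had only 2 and 4 UMIs in all inside cells.

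Homologous recombination and Fanconi genes, which repair and restart broken forks, had 7 of 21 members higher and 0 lower, with a median of 0.80. The 21 include 1 score gene. MND1, a partner of the strand exchange machinery, had 55.8 CPM outside and 14.1 CPM inside, a ratio of 3.95 (2.41 to 6.96). RAD54B, a recombination motor protein, had 21.2 CPM outside and 5.31 CPM inside, a ratio of 4.00 (1.81 to 11.0). BRCA2, a mediator of recombination, had 52.8 CPM outside and 18.6 CPM inside, a ratio of 2.84 (1.84 to 4.63). The kinases ATM and ATR, which signal DNA damage, differed by 0.04 and 0.23 on the log2 scale.

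Nucleotide synthesis outside the score list moved less. None of its 22 measured genes reached 2-fold, and the median was 0.30. DUT, the dUTPase that keeps uracil out of DNA, had 265 CPM outside and 143 CPM inside, a ratio of 1.85 (1.58 to 2.18). TK1, the thymidine salvage kinase, had 91.7 CPM outside and 51.3 CPM inside, a ratio of 1.79 (1.37 to 2.38). The intervals of both genes include 2-fold.

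Histone genes split by kind. Of 13 measured genes with the older HIST names, mostly histones made during replication, 10 were 2-fold higher, and their median was 2.19. Of 9 other histone genes, mostly replication-independent variants, 1 was higher and the median was 0.30. The linker histone HIST1H1B had 118 CPM outside and 10.6 CPM inside, a ratio of 11.1 (6.34 to 21.6). HIST1H4C had 957 CPM outside and 182 CPM inside, a ratio of 5.25 (4.58 to 6.06). HIST1H2BD went the other way, with 23.1 CPM outside and 50.4 CPM inside, a ratio of 0.459 (0.342 to 0.626). It was at 37.7 CPM in inside cells of the authors' cluster 0 and 134 CPM in the other 24, and at 0.614 (0.432 to 0.895) against cluster 0, no longer 2-fold. Replication histone mRNAs mostly lack a poly(A) tail and have near-identical copies, so 3′ capture may count part of them and share their reads, and each single value is uncertain.

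Most genes of mitosis were 2-fold higher in outside cells. In a list of 53 measured mitosis genes that are not score genes, 35 were 2-fold higher, 0 lower and all 53 above 0, with a median of 1.37. Of all 8483 measured genes, 3.36% were 2-fold higher and 4531 lay above 0. FAM83D, a spindle protein, had 56.0 CPM outside and 4.42 CPM inside, a ratio of 12.7 (5.40 to 39.2). NCAPG, a condensin subunit, had 68.1 CPM outside and 9.73 CPM inside, a ratio of 7.01 (3.89 to 14.1). KIF18B, a kinesin that trims spindle microtubules, had 47.0 CPM outside and 7.07 CPM inside, a ratio of 6.65 (3.34 to 15.5). SGO1, the protector of centromeric cohesion, had 40.5 CPM outside and 7.07 CPM inside, a ratio of 5.73 (2.88 to 13.4). CCNB1, the mitotic cyclin B1, differed far less, with 164 CPM outside and 137 CPM inside, a ratio of 1.20 (1.02 to 1.42).

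Among the G2 and M-phase score genes, 38 of 53 were 2-fold higher and 0 lower, with a median of 1.45. CDK1 had 129 CPM outside and 12.4 CPM inside, a ratio of 10.5 (6.21 to 19.2). HJURP, the chaperone that loads the centromeric histone, had 68.5 CPM outside and 9.73 CPM inside, a ratio of 7.04 (3.91 to 14.2). CDC20 had 92.6 CPM outside and 78.7 CPM inside, a ratio of 1.18 (0.945 to 1.48) whose interval includes 1. Tubulin and chromatin compaction genes had 0 of 18 members at 2-fold and a median of 0.36, with TUBB, a beta-tubulin, at 1019 CPM outside and 630 CPM inside.

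**Figure D2:**
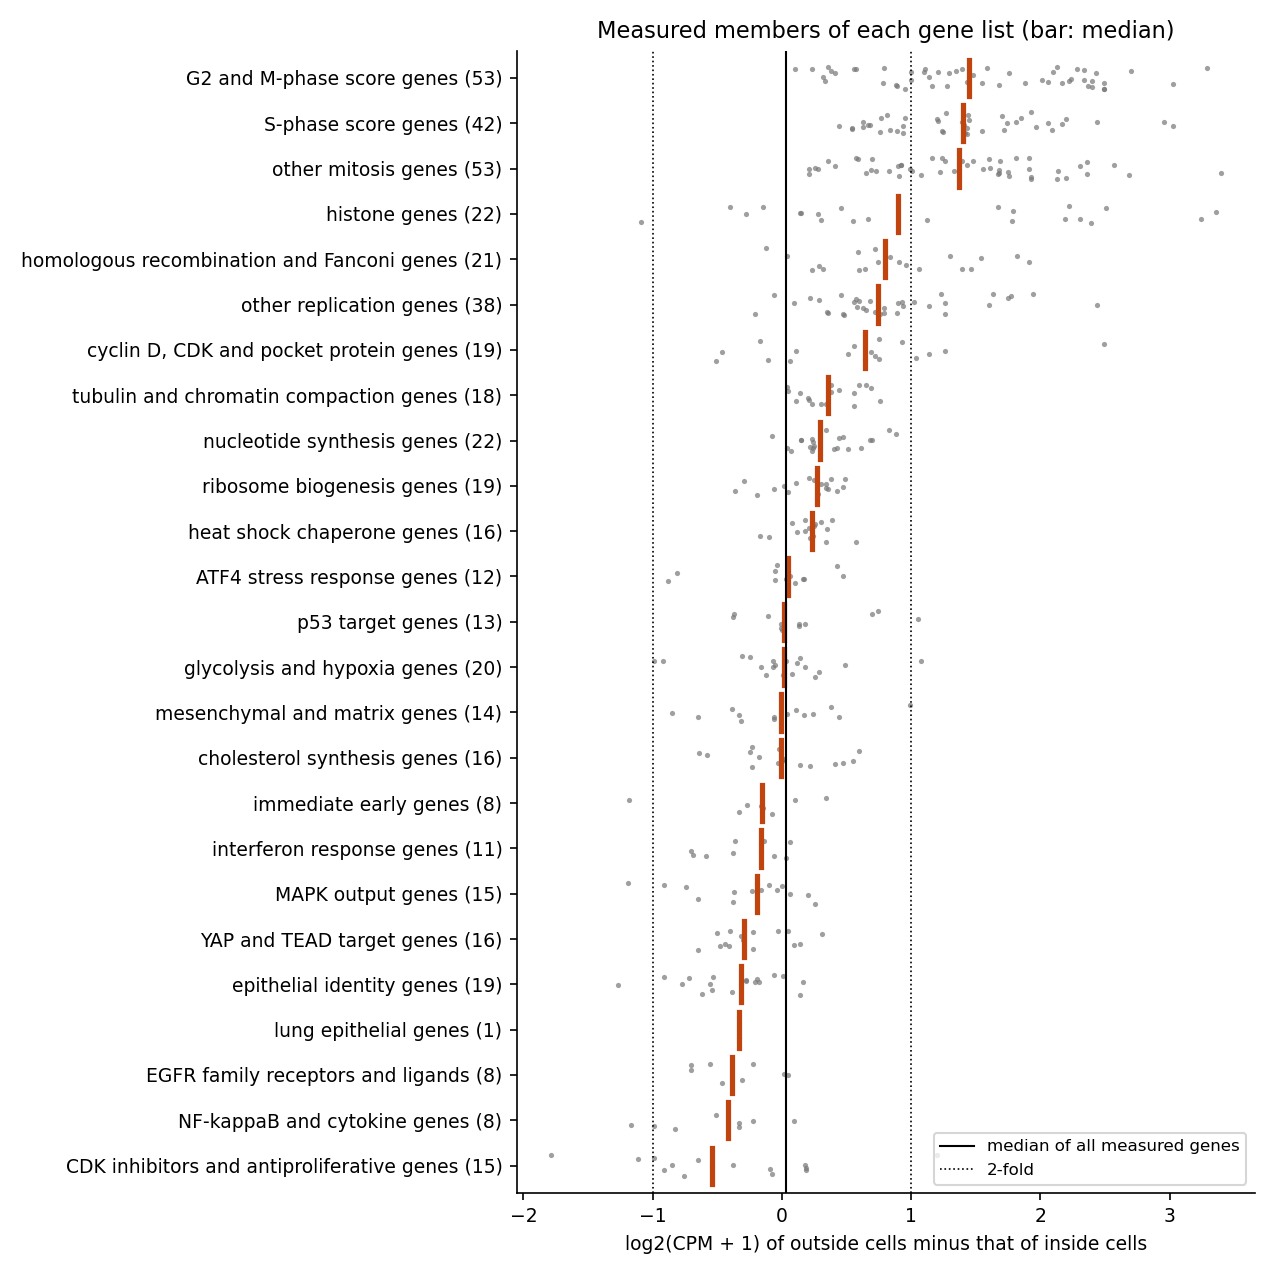
Each grey point is 1 measured gene of a list, placed by log2(CPM + 1) of outside cells minus that of inside cells; red bars are list medians, the solid line is the median of all measured genes (0.03) and dotted lines mark 2-fold. The phase score lists, other mitosis genes and histones stand at the top with medians of 0.90 to 1.45, and the CDK inhibitor list at the bottom with -0.54.

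The machinery that decides entry into S phase showed unequal differences. Of 19 measured cyclin D, CDK and pocket protein genes, 4 were 2-fold higher and 0 lower, with a median of 0.64. CKS1B, 1 of the 4, is a score gene, so its direction supports nothing. FBXO5, an inhibitor of the anaphase-promoting complex that marks commitment to S phase, had 39.4 CPM outside and 6.19 CPM inside, a ratio of 6.36 (3.06 to 15.9). E2F1 had 24.7 CPM outside and 9.73 CPM inside, a ratio of 2.54 (1.40 to 5.16). CDK2, the cyclin E kinase, had 17.4 CPM outside and 7.96 CPM inside, a ratio of 2.19 (1.12 to 4.87) that was under 2-fold in thinned cells and against inside cells called G1. Cyclin D and its kinases, the members nearest to the growth factor signal, were mixed. CDK4 had 113 CPM outside and 69.9 CPM inside, a ratio of 1.62 (1.29 to 2.06). CCND1, cyclin D1, had 516 CPM outside and 555 CPM inside, a ratio of 0.929 (0.855 to 1.01). CDK6 had 295 CPM outside and 420 CPM inside, a ratio of 0.701 (0.636 to 0.775), and CCND3, cyclin D3, 42.1 CPM outside and 38.9 CPM inside, a ratio of 1.08 (0.792 to 1.51).

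Among 15 measured CDK inhibitors and antiproliferative genes, 2 were 2-fold lower, 1 was higher, 11 lay below 0, and the median was -0.54. Of all 8483 measured genes, 3952 lay below 0 and 0.837% were 2-fold lower. CDKN2B, the CDK4/6 inhibitor p15, had 4.67 CPM outside and 18.6 CPM inside, from 21 inside UMIs, a ratio of 0.252 (0.146 to 0.445). YPEL3, a growth-suppressive gene, had 16.7 CPM outside and 37.1 CPM inside, a ratio of 0.449 (0.317 to 0.647). On the log2(CPM + 1) scale, neither gene was 2-fold lower against the inside cells of cluster 0, which leave out 24 of the 169 inside cells. CDKN2B fell just short there, at -0.98. CDKN2B had 10.2 CPM there and 73.7 CPM in the 24 others, and its ratio to cluster 0 was 0.458 (0.227 to 1.02). That of YPEL3 was 0.511 (0.348 to 0.773). The median was -0.29 against the inside cells of cluster 0 alone and -0.25 against inside cells called G1. CDKN1B, the CDK inhibitor p27, was the higher member, with 17.5 CPM outside and 7.07 CPM inside from 8 UMIs, a ratio of 2.48 (1.23 to 5.83) that was under 2-fold in thinned cells and against inside cells called G1. CDKN1A, the p53-induced inhibitor p21, had 23.1 CPM outside and 20.3 CPM inside, a ratio of 1.14 (0.739 to 1.83).

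The 71 lower genes were of modest level: their median was 30.9 CPM inside, and the most abundant had 204 CPM inside. C15orf48, a mitochondrial protein gene, was that gene, with 80.2 CPM outside and 204 CPM inside, a ratio of 0.393 (0.339 to 0.457). NEDD9, a focal adhesion scaffold, had 41.4 CPM outside and 110 CPM inside, a ratio of 0.378 (0.308 to 0.466). ADAMTS9, a secreted protease, had 18.6 CPM outside and 52.2 CPM inside, a ratio of 0.356 (0.264 to 0.487). MTSS1, a membrane-bending actin regulator, had 7.43 CPM outside and 25.6 CPM inside, a ratio of 0.290 (0.185 to 0.463). Other named lower genes were RETREG1, a receptor for autophagy of the endoplasmic reticulum, PLAT, the tissue plasminogen activator, and CEBPD, a transcription factor, at ratios of 0.300, 0.349 and 0.372. All 71 were also lower in UMIs per cell.

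Part of the lower list rested on the 24 inside cells that the authors put in other clusters than 0. Against the 145 inside cells of cluster 0 alone, 39 genes were 2-fold lower, 38 of them among the 71, and all 71 stayed below 0. IGFBP5, a secreted binder of insulin-like growth factors, had 5.31 CPM in outside cells, 7.13 CPM in inside cells of cluster 0 and 174 CPM in the other inside cells, which held 26 of its 33 inside UMIs. Its ratio was 0.182 (0.115 to 0.291) against all inside cells and not 2-fold against cluster 0. ATF3, a stress-induced immediate early gene, had 9.98 CPM outside, 11.2 CPM in cluster 0 and 107 CPM in the other inside cells. MTSS1 had all 29 of its inside UMIs in cluster 0, which held 981650 of the 1130926 inside UMIs of all genes. Its absence from the other 24 cells thus rests on few UMIs. RETREG1 stayed 2-fold lower, at 0.422 (0.259 to 0.716). NEDD9 stayed more than 2-fold lower with 93.7 CPM in cluster 0, and so did C15orf48 with 174 CPM.

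**Figure D3:**
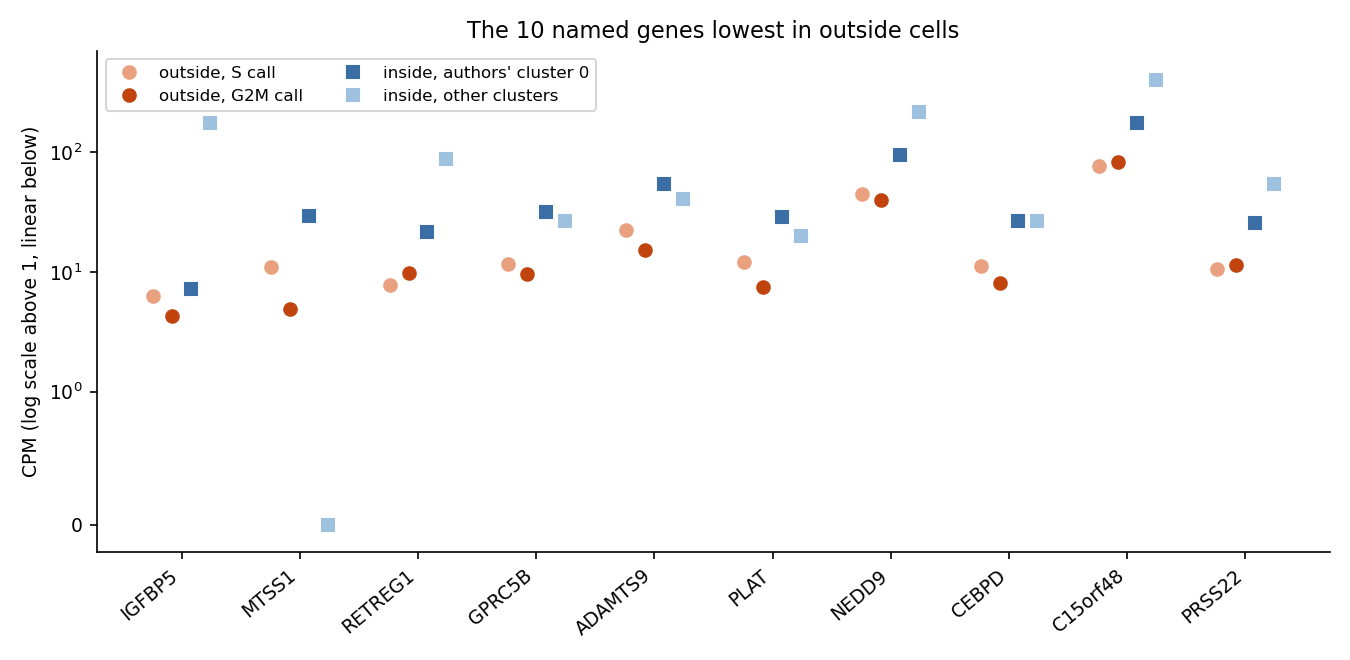
Points give the CPM of the 10 named genes with the lowest outside to inside ratio, in outside cells called S or G2M (circles) and in inside cells of the authors' cluster 0 or of other clusters (squares), on an axis that is logarithmic above 1 and linear below. IGFBP5 has 7.13 CPM in cluster 0 and 174 CPM in the other inside cells, where MTSS1 has no UMI.

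Signalling and identity lists differed little. MAPK output genes, which report signalling below EGFR, had 1 of 15 members lower and a median of -0.19. That member was SPRY4, a feedback inhibitor, with 7.22 CPM outside and 17.7 CPM inside, a ratio of 0.408 (0.245 to 0.710). DUSP6, the ERK phosphatase, had 16.6 CPM outside and 28.3 CPM inside, a ratio of 0.585 (0.398 to 0.885). None of 8 EGFR family receptors and ligands reached 2-fold, and their median was -0.39. The ligand AREG had 30.7 CPM outside and 50.4 CPM inside, a ratio of 0.609 (0.457 to 0.823).

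Of 19 epithelial identity genes, 16 lay below 0, 1 was 2-fold lower, and the median was -0.32. Of all 8483 measured genes, 3952 lay below 0 and 0.837% were 2-fold lower. CLDN1, a tight junction protein, had 15.2 CPM outside and 38.0 CPM inside, a ratio of 0.399 (0.282 to 0.575). Against inside cells of cluster 0, at 30.6 CPM, CLDN1 was at 0.497 (0.333 to 0.763), just short of 2-fold on the log2(CPM + 1) scale. CDH1, E-cadherin, had 69.3 CPM outside and 115 CPM inside, a ratio of 0.603 (0.499 to 0.734). The abundant keratin KRT8 had 1335 CPM outside and 1393 CPM inside, a ratio of 0.959 (0.910 to 1.01). The place of this median against 0 depends on scaling. In UMIs per cell it was -0.02, beside 0.32 for all measured genes, so it lay below the background there too.

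Lists of basic metabolism lay near the background. Cytosolic ribosomal protein genes had a median of 0.01 over 83 genes and nuclear respiratory chain genes 0.02 over 77. Ribosome biogenesis genes had a median of 0.27 over 19 genes, with NOP56, a small nucleolar RNP protein, at 266 CPM outside and 192 CPM inside, a ratio of 1.39 (1.21 to 1.60). Heat shock chaperones had a median of 0.23 over 16 genes, with HSPA8 at 1186 CPM outside and 903 CPM inside, a ratio of 1.31 (1.23 to 1.40). None of these 4 lists held a gene at 2-fold.

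Outside cells were then compared among themselves. Against inside cells, the 542 S-called cells had 338 genes 2-fold higher (3.99%) and 85 lower (1.00%) of 8466, and the 577 G2M-called cells had 312 higher (3.67%) and 119 lower (1.40%) of 8494. Of the 285 higher genes, 167 were 2-fold higher in both calls, 41 in S-called cells only by this threshold and 77 in G2M-called cells only. The 71 lower genes divided into 41 lower in both, 10 in S-called and 20 in G2M-called cells. The difference between the calls was not tested, and score genes follow from the calls.

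For a finer division, chosen after the data were seen, the outside cells with a call of S or G2M were divided into 4 windows by the signs of their scores. The windows rank scores and not time, and genes that vary with the score genes would peak in the same windows. The first window, with the S score alone above 0, held 327 cells. The second held 215 cells with both scores above 0 and the S score higher, and the third held 207 cells with both above 0 and the G2M score higher. The fourth, with the G2M score alone above 0, held 370 cells. Median UMIs per cell were 7317, 8146, 8762 and 9406 in windows 1 to 4, against 6620 in inside cells.

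Genes outside the score lists peaked in different windows. MCM10 had 91.6, 82.5, 50.7 and 29.9 CPM in windows 1 to 4, against 16.8 CPM in inside cells. E2F1 had 40.2, 43.3, 16.9 and 9.05 CPM in windows 1 to 4, the last next to the 9.73 CPM of inside cells. Of the 38 other replication genes, 29 were highest in window 1 or 2 (76.3%), against 51.1% of all measured genes and 39.5% of the 220 higher genes outside the score lists. MCM10 was 3.07-fold (2.41 to 3.93) higher in window 1 than in window 4. The HIST-named histones peaked elsewhere: 12 of 13 were highest in window 3, as were 24.3% of all measured genes. HIST1H1B had 46.0, 143, 206 and 115 CPM in windows 1 to 4, and its level in window 3 was 4.48-fold (3.61 to 5.59) that in window 1 and 1.79-fold (1.55 to 2.07) that in window 4. HIST1H4C had 451, 1073, 1469 and 1021 CPM in windows 1 to 4, against 182 CPM in inside cells, with ratios of 3.26 (3.04 to 3.50) and 1.44 (1.37 to 1.52) for the same pairs.

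Most mitosis genes peaked in window 4, with 37 of 53 highest there (69.8%). The share highest in that window was 24.6% of all measured genes and 35.0% of the 220 higher genes outside the score lists. PLK1 had 15.3, 32.3, 56.3 and 198 CPM in windows 1 to 4, a step of 3.51-fold (2.84 to 4.38) between the last windows. FAM83D had 9.12, 21.9, 44.5 and 117 CPM in windows 1 to 4. Other members were also high in window 3: NCAPG had 30.3, 57.1, 92.9 and 90.5 CPM, and its last pair of windows differed by 0.974-fold (0.803 to 1.19). CDKN1B followed the mitosis genes, with 6.22, 11.0, 22.0 and 26.5 CPM in windows 1 to 4, against 7.07 CPM in inside cells. Of the score genes, which set the windows, CCNE2 had 39.0, 41.5, 11.8 and 3.62 CPM and UBE2C 30.7, 88.8, 182 and 346 CPM.

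Most mitosis genes were lower in inside cells than even in the first window of outside cells. Against window 1, inside cells were higher for 11 of the 53 other mitosis genes (20.8%) and for 18 of the 53 G2 and M-phase score genes (34.0%), below the 48.0% of all 8483 measured genes. CCNB1 and PLK1 were among the exceptions. CCNB1 had 79.6, 74.4, 127 and 294 CPM in windows 1 to 4, against 137 CPM in inside cells, so that inside cells exceeded window 1 by 1.72-fold (1.38 to 2.14). PLK1 was 1.90-fold (1.15 to 3.13) higher inside than in window 1. The 38 inside cells called G2M carried much of this, with 266 CPM of CCNB1 and 71.4 CPM of PLK1. In the 131 inside cells called G1, CCNB1 had 100 CPM, which is 1.26-fold (0.966 to 1.63) the level of window 1, and PLK1 had 17.1 CPM, which is 1.11-fold (0.567 to 2.08). Without the G2M-called cells, 4 of the 53 other mitosis genes and 12 of the 53 score genes lay above window 1, against 46.6% of all measured genes. CCND1 had 536, 426, 471 and 575 CPM in windows 1 to 4, against 555 CPM in inside cells. Its level in window 3 was 0.878-fold (0.804 to 0.959) that in window 1, and its level in window 4 was 1.22-fold (1.13 to 1.33) that in window 3.

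**Figure D4:**
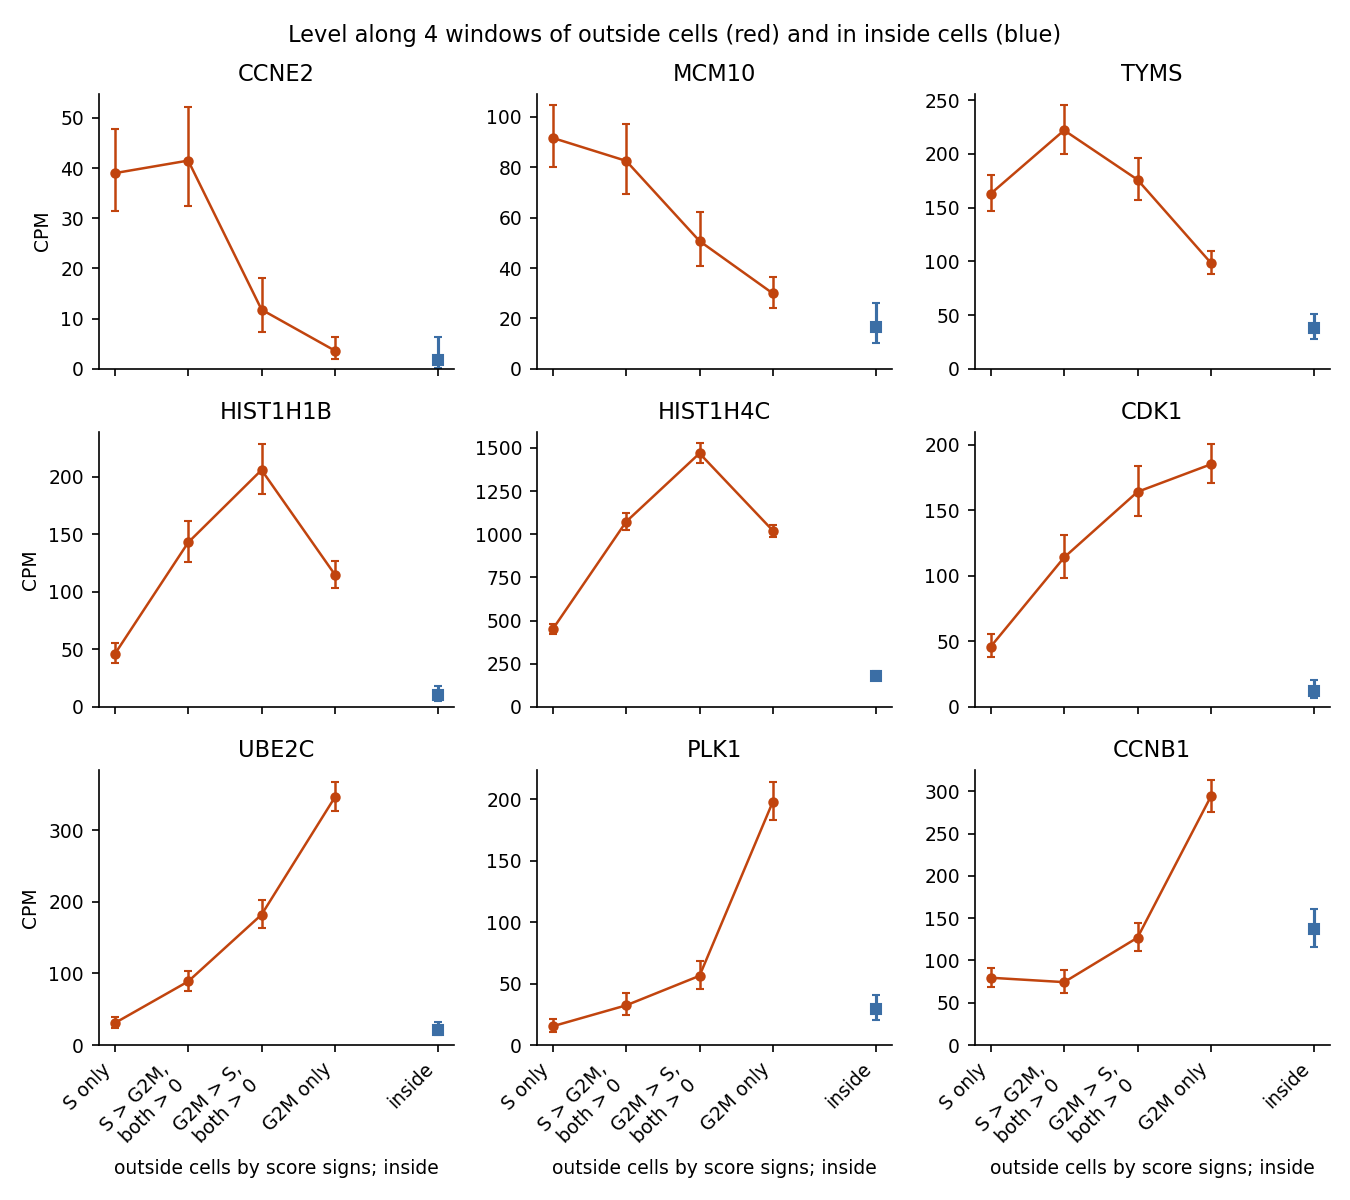
Each panel gives the CPM of 1 gene in the 4 windows of outside cells (red circles, left to right) and in inside cells (blue square, right), with 95% exact Poisson counting intervals and axes that start at 0. MCM10 falls along the windows, HIST1H1B and HIST1H4C are highest in the third, PLK1 and UBE2C in the fourth, and CCNB1 is higher inside (137 CPM) than in the first window (79.6 CPM).

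The same split was made in the other 9 PC9 populations, each 1 culture, to see where the untreated culture stands. It had the highest share of cells outside the table, at 87.1%, against 60.1 to 69.0% in the 8 adapted populations and 18.2% in persisters. With 1 culture against 9, a permutation could not give a p below 0.1, so this is a rank. Of its outside cells 47.3% were called S, the highest of the 10 populations, against 29.3 to 41.7% in the others.

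The difference between outside and inside cells was smaller in the untreated culture than in any other for the phase score lists and for the lists of other replication, recombination, nucleotide synthesis, other mitosis and tubulin genes, but not for histones or for cyclin D, CDK and pocket protein genes. The median log2 difference of the S-phase score genes was 1.40 in untreated cells, against 1.58 to 2.64 in the other 9 populations. For the G2 and M-phase score genes it was 1.45, against 2.45 to 3.36, and 2.07 with only the inside cells called G1. For other mitosis genes it was 1.37, against 2.36 to 3.09. Histone genes lay at 0.90, within 0.72 to 1.03, and cyclin D, CDK and pocket protein genes at 0.64, within 0.41 to 0.85. Some lists lay further below 0 than in any other population. CDK inhibitors were at -0.54, against -0.38 to -0.10, but nearer 0 against inside cells of cluster 0, as given above. EGFR family genes were at -0.39, against -0.33 to 0.02, and YAP targets at -0.29, against -0.15 to 0.04. Interferon and immediate early genes, both at -0.16, lay nearer 0 than in the others. Untreated cells stood at the end of the order on both sides of the split for the G2 and M-phase score genes. The G2 and M-phase score genes summed to 7243 CPM in outside untreated cells, the lowest of the 10, against 8141 to 9424 CPM in outside cells of the others. In inside untreated cells they summed to 3521 CPM, the highest, against 1340 to 2476 CPM in inside cells of the others. For the S-phase score genes the inside sum was 1498 CPM, again the highest, against 553 to 1065 CPM, while the outside sum of 3496 CPM lay within the 2746 to 3622 CPM of the others.

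Single genes differed from the other populations in both directions. Of 7683 genes measured in the split of every population, the untreated difference lay outside the range of the other 9 for 2767 (36.0%), with 1088 above (14.2%) and 1679 below (21.9%). Any of 10 populations lies beyond the other 9 for some genes, and no value without a difference was available for this share, so it is a description. Counting error enters each of these, and the untreated inside group was the smallest, with 1130926 UMIs against 1800560 to 3772210 in the inside groups of the others. The genes given next were chosen for their distance from the other populations. NEIL3, a DNA glycosylase of cycling cells, differed by 1.43 on the log2 scale in untreated cells, against 3.04 to 4.18 in the others. ANLN, a scaffold of the cleavage furrow, differed by 1.45, against 2.82 to 3.96. The difference was larger than in the others for CLDN1 and RELB, and nearer 0 for ABCA1. ABCA1, a cholesterol exporter, had 29.5 CPM outside and 28.3 CPM inside in untreated cells, a difference of 0.06, against -2.74 to -1.37 in the others. CLDN1 differed by -1.27 in untreated cells, against -0.12 to 0.55, and RELB, an NF-kappaB subunit, by -1.17, against -0.03 to 0.46. The histones did not share the pattern of the mitosis genes: HIST1H1B differed by 3.36, within the 2.72 to 4.20 of the others.

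**Figure D5:**
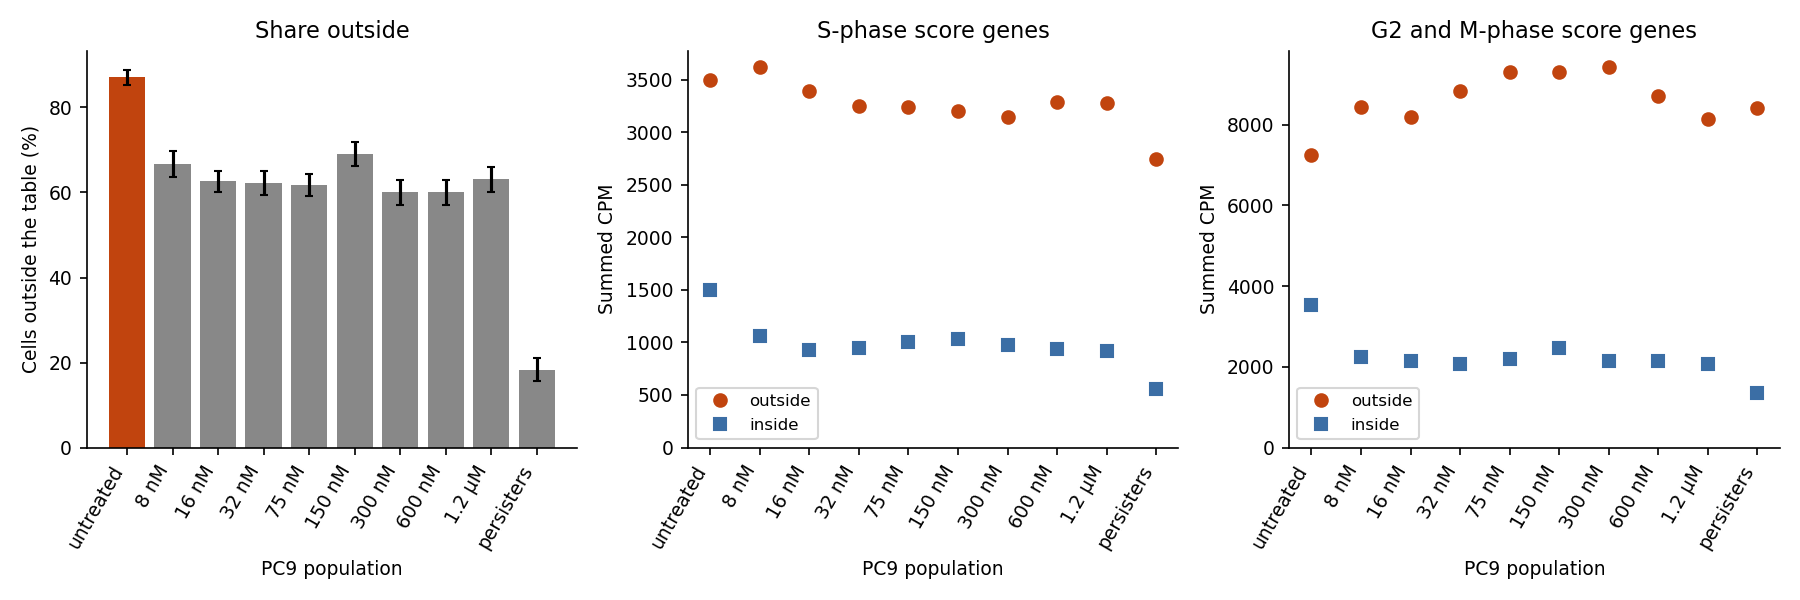
The bars give the share of cells outside the table in each PC9 population with 95% exact binomial intervals, untreated in red, and the other panels give the summed CPM of the 2 score lists in outside cells (red circles) and inside cells (blue squares). Untreated cells have the highest share outside (87.1%) and the highest inside sums (1498 and 3521 CPM).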

How the data were processed

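The count tables deposited by the authors hold unscaled UMI counts for each gene in each cell, as the labels describe them. Cell Ranger 7.0.0 and GRCh38 are named in the submitters' processing notes, and the filters on cells and genes are not given in the sources used here. The PC9 cell table, per the file headers, gives counts of UMIs and genes, the percent of mitochondrial UMIs and a cluster number for each listed cell. Its counts and percent matched those recomputed from the count table within 0.001 percentage points. The A375 tables and the tag libraries were not used.

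Population was read from the suffix of each cell name and membership from the cell table. No doublet caller was run. No untreated cell exceeded 2 times the untreated median, and 94 exceeded 1.5 times. Over all PC9 cells, 91 exceeded 2 times the median of their population. The deepest untreated cell held 13575 UMIs, and filters before deposition are not known, so depth cannot show whether doublets remain. UMIs were summed per group, scaled to CPM, and compared as log2(CPM + 1) differences with a pseudocount of 1, and as ratios of CPM with 95% exact binomial intervals (scipy 1.17.1). The 20 UMI minimum favours calls in the larger outside group. Cells share 1 culture, so no p-value was computed. Phase scores came from scanpy 1.11.5 on log-normalised counts of all PC9 cells, and edgeR 4.0.16 gave trimmed mean scaling factors only. The comparison was tested on simulated counts that hold counting error only. Of 200 changed genes, 198 were called in the right direction. Of 8192 unchanged genes, 30 were called 2-fold, 28 of them higher and 2 lower. Genes named were TYMS and UBE2C, and the 10 highest and 10 lowest with at least 25 CPM and no clone, antisense or LINC name. Further genes were 5 a direction outside the score lists and up to 4 of each list with the largest absolute difference. Also named were 5 a direction for S-called and G2M-called cells, and 6 farthest from the other populations. CCNB1, PLK1, CDC20, CDC6, CCND1, CCND3, CDK4, CDK6, CDKN1A, HIST1H2BD, ORC1, ORC2, ORC3, ORC6, ATM and ATR were named after their values were seen, as were the epithelial markers and promoters. Members and gene lists were chosen with earlier results of these data known. Alternatives changed the pseudocount, minimum, fold, scaling, thinning and cells. RefSeq promoters were matched by symbol or by a synonym of 1 gene, and 242 of the 285 higher genes matched.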

Additional observations from a re-analysis of the deposited data

How the results depend on the processing

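No paired analysis was possible because the 2 groups are cells of 1 culture and carry no replicate numbers. Against 285 higher and 71 lower genes, the counts were 690 and 407 with no minimum, 98 and 16 at 50 CPM, 802 and 439 at 1.5-fold, 114 and 5 at 3-fold. Thinned cells gave 515 higher genes, and fewer inside UMIs then stand behind each. A pseudocount of 5 gave 42 lower genes and the inside cells of cluster 0 gave 39. Alternatives added after the data were seen were UMIs per cell (563 and 25), cells under 1.5 times the median UMIs, inside cells called G1, and the 4 windows. Against inside cells called G1, the medians were 2.07 for G2 and M-phase score genes, -0.25 for CDK inhibitors and -0.41 for epithelial genes. In UMIs per cell they were 0.66 for tubulin and chromatin genes, -0.25 for CDK inhibitors, 0.13 for interferon genes, 0.53 for heat shock genes, 0.31 for glycolysis, 0.57 for ribosome biogenesis, 0.00 for YAP targets, -0.02 for epithelial genes, 0.21 for mitochondrial genes and 0.30 for ribosomal protein genes. The median of all measured genes was 0.32 in UMIs per cell and 0.11 in thinned cells, beside 0.03 in the main comparison. List medians are to be read against these values. Thinning gave -0.25 for CDK inhibitors, 0.02 for NF-kappaB genes and -0.38 for interferon genes. Interferon genes were at -0.37 with 50 CPM, -0.29 as per-cell means and -0.03 with cluster 0, where CDK inhibitors were at -0.29. Mitochondrial genes were at 0.01 without cells at 10% or more. Shares without thinning were 64.3% outside and 20.1% inside for TYMS and 52.1% outside for UBE2C. No called value changed sign. Of 1862 gene ratios under alternatives, 66 moved by more than their interval and 12 changed sign, none of these 2-fold. Named genes called 2-fold fell under 2-fold in 45 of 798 cases. Genes with few inside UMIs are limited by depth.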

Other observations

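Lists with few or no genes at 2-fold complete the comparison of outside with inside cells. NF-kappaB and cytokine genes had 1 of 8 members lower and a median of -0.42, and RELB was that member, with 18.4 CPM outside and 42.4 CPM inside, a ratio of 0.433 (0.313 to 0.609). Against inside cells of cluster 0, RELB was at 0.530 (0.365 to 0.790), no longer 2-fold, with 34.6 CPM there and 93.8 CPM in the other inside cells. SAA1, an acute phase gene, had 51.3 CPM outside and 103 CPM inside, a ratio of 0.500 (0.407 to 0.618) that falls just short of 2-fold on the log2(CPM + 1) scale. Interferon response genes had a median of -0.16 over 11 genes. Immediate early genes had 1 of 8 lower and a median of -0.16, and that gene was ATF3.

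YAP and TEAD target genes had a median of -0.29 over 16 genes. The median was -0.01 for 14 mesenchymal and matrix genes, -0.01 for 16 cholesterol synthesis genes, 0.05 for 12 ATF4 stress genes, 0.01 for 20 glycolysis and hypoxia genes and -0.09 for 13 mitochondrially encoded genes. PFKL, the liver-type phosphofructokinase, was the 1 glycolysis gene at 2-fold, with 25.5 CPM outside and 11.5 CPM inside, a ratio of 2.22 (1.27 to 4.22) that was under 2-fold in thinned cells. Of 13 p53 target genes, 1 was higher and the median was 0.02: PPM1D, the phosphatase that dampens p53, had 24.8 CPM outside and 11.5 CPM inside, a ratio of 2.16 (1.24 to 4.12) that was under 2-fold against inside cells called G1. The lung epithelial list had 1 measured gene, the protease inhibitor SLPI, with 229 CPM outside and 289 CPM inside.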
